A study of Homo sapiens with 15 samples.

Results

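Messenger RNA levels of 46 human translation initiation and elongation factors were followed in HEK293T cells given thapsigargin or one of the compounds IXA1, IXA4 and IXA6. The 46 genes are all rows of the deposited count table, out of 13243, whose symbols begin with EIF1, EIF3, EIF4, EIF5, EIF6, EEF1 or EEF2, without the eIF4E-binding proteins, without EIF1AY and without hyphenated symbols. The rule reads names only and no measured value, but it was set with earlier results of these data known. Besides the factors it takes in EIF4ENIF1, a transporter of eIF4E, the kinase gene EEF2K, the methyltransferase genes EEF1AKMT1 and EEF2KMT, and EEF1E1, whose product is better known as a scaffold of the aminoacyl-tRNA synthetase complex. By role, 6 members act in start codon selection and subunit joining, 14 encode subunits of eIF3, 12 belong to the eIF4 group, 4 encode eIF5A or eIF6 proteins, and 10 are elongation factors or enzymes acting on them.

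Translation of most messages begins when the eIF4 proteins bind the cap at the start of the message and recruit the small ribosomal subunit, which carries eIF1, eIF1A, eIF3, eIF5 and initiator tRNA bound to eIF2. The complex scans to a start codon, eIF5 prompts eIF2 to hydrolyse its GTP, and eIF5B joins the large subunit. eEF1A then delivers each aminoacyl-tRNA, the eEF1B subunits recharge eEF1A with GTP, and eEF2 moves the ribosome along the message. During stress of the endoplasmic reticulum the kinase PERK phosphorylates eIF2, which lowers initiation on most messages while that of the transcription factor ATF4 is translated better. Several initiation and elongation factors belong to a class of messages that begin with a run of pyrimidines and whose translation follows growth signalling through mTOR.

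All cells were HEK293T, a single immortalized human embryonic kidney line, treated at 37C for 4 h before total RNA was taken. Controls received the solvent DMSO. The series' text calls IXA1, IXA4 and IXA6 activators of IRE1 and XBP1s, one branch of the unfolded protein response. Thapsigargin (Tg), an inhibitor of the calcium pump of the endoplasmic reticulum, served as an activator of the whole response. There were 2 libraries of IXA1 and 3 of each other group. The labels state no doses, so the compounds were compared at the same time and at doses that may not correspond. Libraries held 14160321 to 15726742 counts. The lowest count of any member in any library was 104, for EEF1AKMT1, and the highest was 53651, for EEF2.

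The treatments were visible in genes of the stress response. HSPA5, the main chaperone of the endoplasmic reticulum, was higher by 0.65, 0.69 and 0.71 log2 with IXA1, IXA4 and IXA6 and by 3.33 with Tg. CHAC1, a target of ATF4, was higher by 2.04 with IXA1, 0.87 with IXA4 and 4.54 with Tg, and its difference with IXA6 was -0.01 (adjusted p = 0.99). All 8 listed HEK293T markers were measured, and their summed level ran from 594 to 688 CPM (counts per 1000000 counts of a library, after TMM scaling). Most of it came from VIM (340 to 419 CPM), NEFM (139 to 188) and NEFL (70.1 to 83.4). PAX2, LHX1, ENO2 and KRT8 were low, between 0.819 and 6.41 CPM, and KRT18 ran from 14.6 to 22.7 CPM. Of 8 markers of cells that such a culture should not hold, 3 were in the table and summed to 11.5 to 17.3 CPM, and PTPRC, CD3E, HBB, ALB and PECAM1 were not rows of it. Libraries of a group differed by more than counting error, least between DMSO 2 and DMSO 3 (chi-square per degree of freedom 2.49) and most between Tg 1 and Tg 2 (9.34). Tg 1 and IXA6 1 stood farthest from the libraries of their groups, and values without them are given where a call rests on them. Tg 2 stood nearly as far out as Tg 1, at 4.74 from Tg 3 beside 5.12 for Tg 1. Messages per cell and the number of cells cannot be told apart in such bulk RNA, and all levels are relative to the other genes of the library.

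The 46 genes together took 2.14% ± 0.0245 (SD, n = 3) of all counts in DMSO libraries. The share was 2.22% ± 0.019 (SD, n = 2) with IXA1, 2.10% ± 0.0139 (SD, n = 3) with IXA4, 2.05% ± 0.0368 (SD, n = 3) with IXA6 and 2.13% ± 0.0519 (SD, n = 3) with Tg. Both IXA1 libraries lay above every DMSO library, and every IXA6 library lay below every DMSO library. The IXA4 libraries also lay below, but IXA4 1 at 2.114% was within the spread of DMSO 1 at 2.117%. These shares are of library totals, without TMM scaling.

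With Tg, 14 of the 46 genes were called, 9 higher and 5 lower, in edgeR's quasi-likelihood test at a Benjamini-Hochberg adjusted p of 0.05. That is 30.4% of the members, beside 35.8% of all genes tested. In a fit of genes with a mean of at least 10 CPM, 12 of 45 members were called, 5 higher and 7 lower, beside 45.1% of those genes. In the fit of all genes the share of members called higher was 19.6%, beside 18.8% of all genes, and the share called lower was 10.9%, beside 17%. Their median log2 fold change was 0.06, beside -0.01 for all genes, and the range was -0.55 to 0.67. Only EIF1 changed at least 1.5-fold. When libraries were scaled by their totals alone, 4 members were called higher and 10 lower with Tg, and 9 of the 14 calls were shared. The split of the small changes therefore depends on the scaling, which shifts the median of all genes by -0.07 log2. EIF1, EIF5, EIF3J, EIF4A2, EIF4E2 and EIF4G1 kept their calls and directions under every alternative tried.

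**Figure D1:**
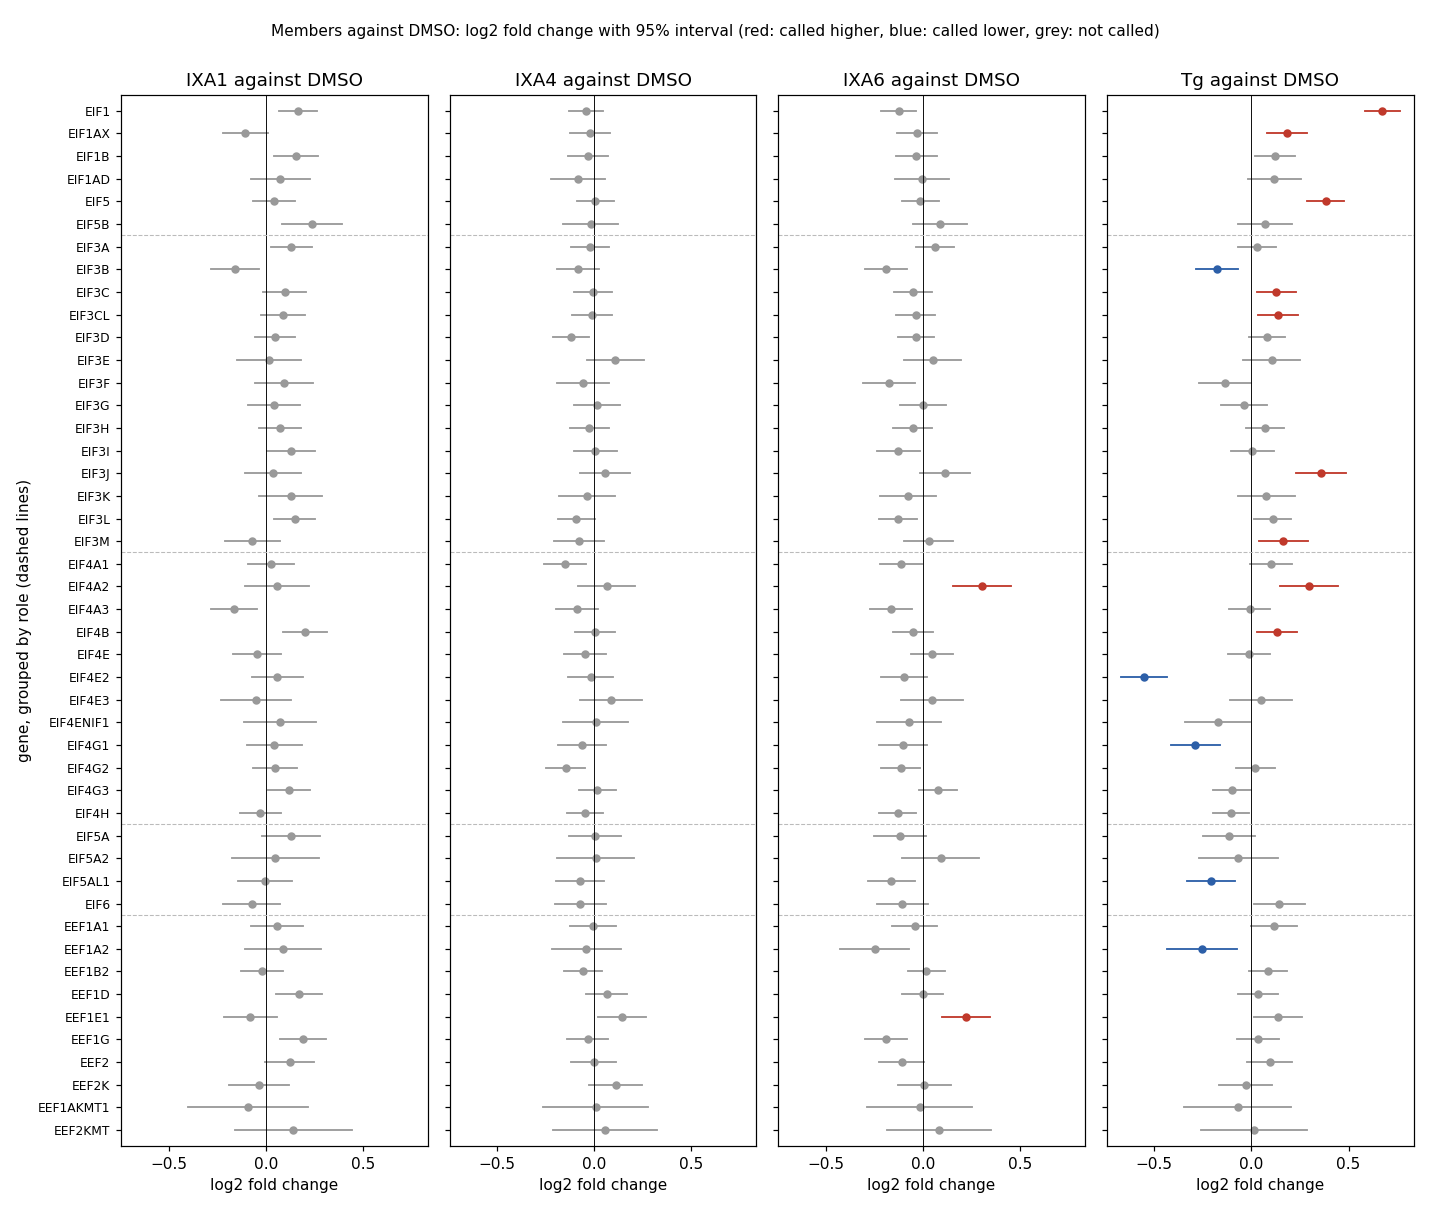
Log2 fold change of each of the 46 genes against DMSO, 1 panel per treatment, grouped by role between dashed lines. Points are edgeR estimates, lines are 95% intervals, and colour marks calls at an adjusted p of 0.05 (red higher, blue lower, grey not called). IXA1 and IXA4 have no call, IXA6 has 2 and Tg has 14, with EIF1 at 0.67 and EIF4E2 at -0.55 as the widest.

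Of the 6 genes of start codon selection and subunit joining, EIF1, EIF5 and EIF1AX rose with Tg and none fell. Of all genes, 18.8% were called higher with Tg and 17% lower. EIF1 encodes the factor that keeps the scanning ribosome from starting at poor start codons. It measured 354.1, 361.4 and 363.2 CPM in the DMSO libraries and 576.8, 559 and 585.4 CPM with Tg. Every Tg library lay above every other library of the study. The log2 fold change was 0.67 ± 0.04 (SE), or 1.60-fold, with an adjusted p of 6.6184e-12 in edgeR's quasi-likelihood test. EIF1 was also higher with Tg than with IXA1 by 0.51 log2, than with IXA4 by 0.72 and than with IXA6 by 0.80, each with an adjusted p of 1.8723e-08 or lower in edgeR's test.

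EIF5 encodes the protein that activates GTP hydrolysis by eIF2. It measured 523.1, 533.8 and 536.5 CPM with DMSO and 678.3, 677.7 and 720.5 CPM with Tg, with no overlap. The log2 fold change was 0.38 ± 0.05 (SE), or 1.30-fold (edgeR adjusted p = 6.6267e-07). Levels with IXA1, IXA4 and IXA6 ran from 509.5 to 563.1 CPM, below all Tg libraries, and the differences between Tg and each of them were 0.34, 0.38 and 0.39 log2, all called. EIF1AX, the gene of eIF1A on the X chromosome, measured 290.7, 283.9 and 307.5 CPM with DMSO and 343, 316.4 and 342.3 CPM with Tg. The groups did not overlap, and the rise was 0.18 ± 0.05 log2 (SE, edgeR adjusted p = 0.0053878). With library totals in place of TMM it was 0.11 and was no longer called (highest adjusted p over its alternatives 0.0577). The other 3 members of the group were not called. EIF5B, the subunit joining GTPase, differed by 0.07 log2 from DMSO and EIF1AD by 0.12.

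EIF1B encodes a close relative of eIF1. Its levels were 81.9, 81.94 and 82.7 CPM with DMSO and 88.72, 87.87 and 91.9 CPM with Tg. The Tg libraries were all higher, by 0.12 log2, but the test was not passed (edgeR adjusted p = 0.058192). Of the summed CPM of EIF1 and EIF1B, EIF1 took 80.3% to 82.0% in the 11 libraries without Tg and 86.4% to 86.7% in those with Tg. The 100 bases before the annotated start of the pair are shown because the relatives differed in size of response, from RefSeq, build GRCh38.p14, 5′ to 3′ on the + strand at chr17:41688785-41688884 for EIF1 and chr3:40309607-40309706 for EIF1B. Capitals mark CACGTG, the E box bound by MYC and related factors, which reads the same on both strands.
EIF1: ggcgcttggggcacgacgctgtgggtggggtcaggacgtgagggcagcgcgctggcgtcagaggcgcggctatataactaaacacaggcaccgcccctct
EIF1B: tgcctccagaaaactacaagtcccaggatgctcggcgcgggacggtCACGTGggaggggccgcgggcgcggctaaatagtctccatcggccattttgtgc
An E box occurred near a start in 10 of the 36 members with a RefSeq promoter entry (27.8%), beside 8.77% of 27305 genes with one. Those 27305 include genes not measured here. The search ran from 250 bases before a start to a short stretch after it. Every match in a member lay before the start. TGATGNAA, the element bound by ATF4 with its partners, occurred in EIF4E3 alone (2.78% of members, 4.46% of genes), on either strand and without overlap with an E box. The core of the XBP1s element, TGACGTGG, occurred in no member and in 0.927% of genes, and the ATF6 element ERSE, which is CCAAT and CCACG with 9 bases between them, in no member and in 0.0916% of genes. These are matches of letters in a window, not measured binding.

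Of the 14 genes of eIF3, the large complex that organizes initiation on the small subunit, EIF3J, EIF3M, EIF3CL and EIF3C rose with Tg, EIF3B fell and 9 were not called. Beside these counts stand the 18.8% of all genes called higher and the 17% called lower. EIF3J encodes a loosely held subunit that binds near the path of the message in the small ribosomal subunit. It measured 156.5, 145.6 and 159.9 CPM with DMSO and 194.2, 192.2 and 204.8 CPM with Tg. Every Tg library lay above all others, the nearest being IXA6 1 at 186.4 CPM. The log2 fold change was 0.36 ± 0.06 (SE), or 1.28-fold (edgeR adjusted p = 7.7514e-05). Against IXA1, IXA4 and IXA6 the difference was 0.32, 0.30 and 0.24 log2, all called.

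EIF3B encodes a core scaffold subunit. It measured 386.4, 384.2 and 396.5 CPM with DMSO and 306.9, 366.3 and 359.9 CPM with Tg, lower without overlap by 0.18 ± 0.05 log2 (SE, edgeR adjusted p = 0.010679). Tg 1 was the lowest library of all, and without it the difference was -0.10 log2 and no longer called (adjusted p = 0.0735). EIF3M measured 392.9, 417.8 and 421.9 CPM with DMSO and 504.2, 407.6 and 470 CPM with Tg. These groups overlapped, and the rise of 0.17 ± 0.06 log2 (SE, edgeR adjusted p = 0.038488) was 0.10 and not called without Tg 1. EIF3C and EIF3CL are near-identical copies whose reads may have been divided between them. EIF3CL rose by 0.14 ± 0.05 log2 (SE, edgeR adjusted p = 0.033222) and EIF3C by 0.13 ± 0.05 (SE, edgeR adjusted p = 0.03698). Summed, a step chosen after the values were seen, the pair rose by 0.13 ± 0.05 log2 (SE, edgeR adjusted p = 0.035763), and EIF3C made up 41.2% to 42.8% of it in every library. Both single calls were lost in 8 of 14 alternatives, among them library totals and leaving out any of the DMSO libraries. With library totals EIF3CL differed by 0.07 log2 and EIF3C by 0.06, and without Tg 2 EIF3CL differed by 0.08. The remaining 9 subunits lay between -0.14 (EIF3F) and 0.11 (EIF3L) log2.

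Of the 12 genes of the eIF4 group, 2 were called higher with Tg, 2 lower and 8 were not called. Among all genes 18.8% were called higher and 17% lower. EIF4E2 encodes a cap-binding relative of eIF4E that represses its target messages. It measured 81.26, 83.94 and 82.5 CPM with DMSO and 53.51, 57.59 and 57.89 CPM with Tg. Every Tg library lay below every other library of the study. The level with Tg was 0.682 of that with DMSO, a log2 fold change of -0.55 ± 0.06 (SE, edgeR adjusted p = 6.085e-08). The differences between Tg and IXA1, IXA4 and IXA6 were -0.61, -0.53 and -0.46 log2, all called. The related EIF4E, the main cap-binding protein, and EIF4E3 were not called, at -0.01 and 0.05 log2.

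EIF4G1 encodes the scaffold that joins the cap-binding protein to eIF3. It measured 1263, 1266 and 1207 CPM with DMSO and 914.6, 1105 and 1039 CPM with Tg. The groups did not overlap, and the gene fell by 0.29 ± 0.06 log2 (SE, edgeR adjusted p = 0.00058927). Without Tg 1 the difference was -0.22 and still called. Its relatives EIF4G2 and EIF4G3 were not called, at 0.02 and -0.10 log2. EIF4A2, one of the helicases that unwind the message, measured 129.2, 142.3 and 132.3 CPM with DMSO and 189.6, 149.2 and 156.3 CPM with Tg. It rose by 0.29 ± 0.07 log2 (SE, edgeR adjusted p = 0.0024203), and without Tg 1 by 0.18, which was still called. The paralogous helicase EIF4A1 was not called, at 0.10 log2. EIF4B, a cofactor of these helicases, measured 351, 355.6 and 363.3 CPM with DMSO and 359.3, 398.5 and 415.6 CPM with Tg. Tg 1 lay within the DMSO range, and the rise of 0.13 ± 0.05 log2 (SE, edgeR adjusted p = 0.038256) was lost in 8 of 13 alternatives. It was 0.09 without Tg 3 and 0.06 with library totals.

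**Figure D2:**
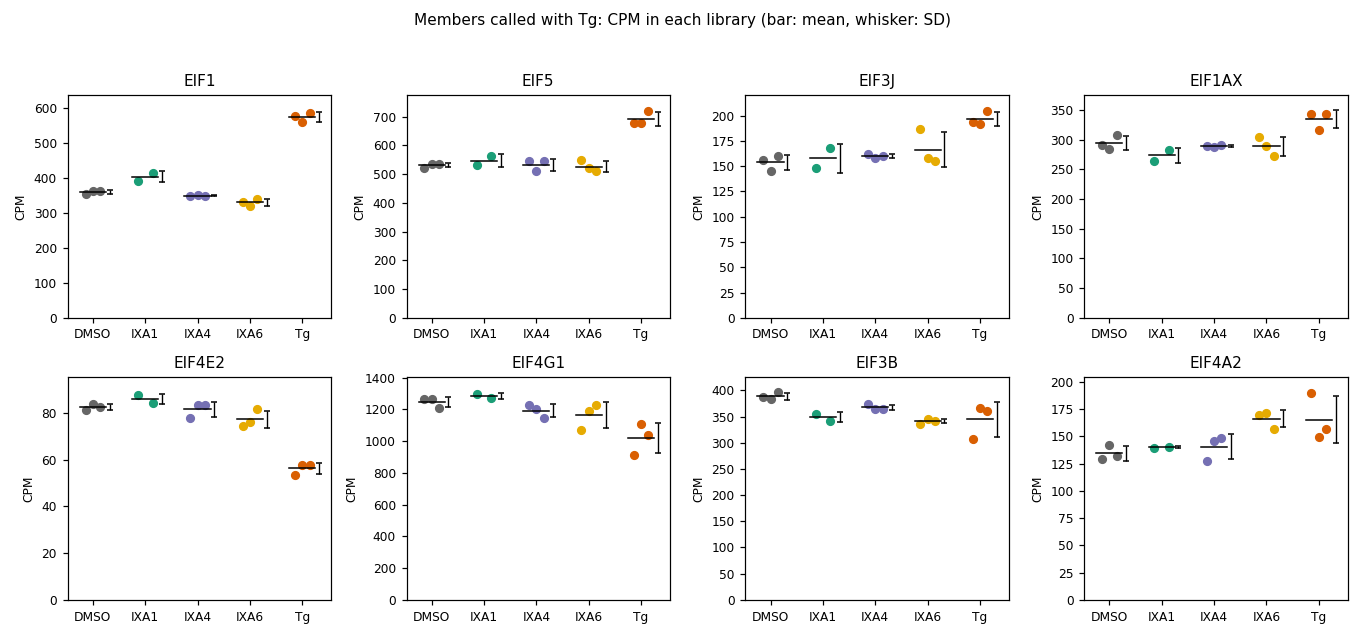
Level in CPM of 8 genes called with Tg, 1 point per library, with the group mean as a bar and the SD as a whisker; axes start at 0. The Tg points of EIF1, EIF5, EIF3J and EIF1AX lie above all others and those of EIF4E2 below all others, while in EIF4G1, EIF3B and EIF4A2 Tg 1 stands apart from Tg 2 and Tg 3.

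Of the elongation genes 1 of 10 was called with Tg, and of the eIF5A and eIF6 genes 1 of 4. Both were lower, beside 17% of all genes called lower and 18.8% called higher. EEF1A2, the eEF1A isoform of muscle and nerve, measured 37.63, 41.49 and 43.1 CPM with DMSO and 30.3, 39.9 and 32.44 CPM with Tg. The groups overlapped, and the fall of 0.25 ± 0.09 log2 (SE, edgeR adjusted p = 0.026289) was -0.17 and not called without Tg 1. It was also lost without Tg 3, DMSO 2 or DMSO 3 (highest adjusted p = 0.153). EIF5AL1, a near-identical copy of EIF5A, measured 362.3, 356 and 371.9 CPM with DMSO and 285.5, 340.1 and 320.2 CPM with Tg. It was lower by 0.21 ± 0.06 log2 (SE, edgeR adjusted p = 0.0093229), but without Tg 1 the difference was -0.14 and not called. Summed with EIF5A, the gene of the factor that relieves stalled ribosomes, the difference was -0.14 ± 0.06 log2 (SE, edgeR adjusted p = 0.082317). EEF1A1, EEF2, EEF1B2, EEF1D and EEF1G, which carry out the elongation cycle, lay between 0.03 and 0.12 log2 and none was called. EIF6, which keeps the large ribosomal subunit from joining too early, was 0.14 log2 higher without passing the test (edgeR adjusted p = 0.080253).

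With IXA1, no member was called against DMSO in edgeR's quasi-likelihood test, beside 2.31% of all genes. Unadjusted p was below 0.05 for 12 of the 46 and for 2056 of all 13243 genes. DESeq2's Wald test called 4 members and 454 genes in all. Differences ran from -0.16 to 0.24 log2 with a median of 0.06, beside -0.01 for all genes, and 33 of 46 were positive. Both IXA1 libraries lay above all DMSO libraries in 18 members, or 39.1% of them, beside 17.6% of all genes, and below them in 4 members, beside 17.3%. EIF4B came nearest to the threshold, with 407 and 413.2 CPM against 351 to 363.3 CPM in the DMSO libraries, a difference of 0.20 ± 0.05 log2 (SE, edgeR adjusted p = 0.052033). EIF1 was next, with 392.2 and 415 CPM, and differed by 0.17 ± 0.05 log2 (SE, edgeR adjusted p = 0.064552). EEF1G, the gamma subunit of the exchange factor for eEF1A, differed by 0.19 ± 0.06 log2 (SE, edgeR adjusted p = 0.081942). EIF5B had the highest difference, 0.24 ± 0.08 log2 (SE, edgeR adjusted p = 0.10517), with 460.2 and 521.6 CPM against 391.4 to 448.9 CPM.

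With IXA4, no member was called in edgeR's test either, beside 0.8% of all genes. Unadjusted p was below 0.05 for 4 members and for 1216 of all 13243 genes. DESeq2's Wald test called 1 member and 138 genes in all. Differences ran from -0.15 to 0.14 log2 with a median of -0.02, and 29 of 46 were negative. The 95% intervals of the 46 differences had a median half-width of 0.12 log2, and all of them lay between -0.26 and 0.33. The lowest difference was that of EIF4A1, which measured 915.2, 998.6 and 975.5 CPM with DMSO and 851.5, 879.6 and 873.7 CPM with IXA4 (-0.15 log2, edgeR adjusted p = 0.28395).

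With IXA6, 2 members were called and both were higher, which is 4.35% of the members, beside 2.29% of all genes called either way and 1.51% called higher. Most members lay on the other side, with a median of -0.04 log2, a range of -0.25 to 0.30 and 32 of 46 negative. This lean was not particular to IXA6, since 29 of 46 were negative with IXA4. In 12 members all IXA6 libraries lay below all DMSO libraries (26.1% of members, 12% of all genes), and in 4 above (12% of all genes). DESeq2's Wald test and the fit of genes of at least 10 CPM each called 2 members higher and 2 lower, beside 445 and 364 genes called in all. EIF4A2 measured 129.2, 142.3 and 132.3 CPM with DMSO and 169.9, 171.4 and 157.2 CPM with IXA6, with no overlap. It rose by 0.30 ± 0.07 log2 (SE), or 1.23-fold (edgeR adjusted p = 0.024509). As with Tg, its close relative EIF4A1 did not pass the test, at -0.11 log2, and EIF4A2 took 14.5% to 16.7% of the CPM of the pair with IXA6 against 11.9% to 12.5% with DMSO. EEF1E1 measured 94.89, 97.99 and 88.7 CPM with DMSO and 116.4, 102.3 and 109.9 CPM with IXA6, also with no overlap. It rose by 0.22 ± 0.06 log2 (SE), or 1.17-fold (edgeR adjusted p = 0.046059). Neither call outlasted the loss of IXA6 1, without which the differences were 0.29 and 0.18 log2. EIF4A2 was also lost without IXA6 2, DMSO 1 or DMSO 3 (highest adjusted p = 0.111), and EEF1E1 without IXA6 3 or any single DMSO library (highest adjusted p = 0.206). EEF1G and EIF3B missed the threshold narrowly from the other side, each at -0.19 log2 (edgeR adjusted p = 0.054129 and 0.054349).

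The comparisons against DMSO share their control libraries, so the compounds were compared directly in 3 pairs, with p-values adjusted over all genes within each pair. Between IXA1 and IXA6, 11 of 46 members were called, 10 higher with IXA1 and 1 higher with IXA6. That is 23.9% of the members beside 7.35% of all genes, and beside 11.9% of genes with a mean of at least 10 CPM. For those higher with IXA1 the share was 21.7% beside 4.53%, and for those lower 2.17% beside 2.82%. The median difference was 0.10 log2 beside -0.01 for all genes, and no member differed 1.5-fold. In 25 members both IXA1 libraries lay above all IXA6 libraries (54.3% of members, 21.2% of all genes), and in 3 below (20.9% of all genes). With libraries scaled by their totals the split was 7 higher and 2 lower. Leaving out either IXA1 library left 3 calls, and leaving out IXA6 1 left 5.

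EEF1G showed the largest difference of the 46 between IXA1 and IXA6. It measured 1076 and 1125 CPM with IXA1 and 859.5, 825 and 850 CPM with IXA6, and DMSO lay between them at 910.7 to 1023 CPM. The difference was 0.38 ± 0.06 log2 (SE), or 1.30-fold (edgeR adjusted p = 0.0006352). Other elongation genes went the same way. EEF2, the translocase, measured 3594 and 3371 CPM with IXA1 and 2847, 2867 and 3184 CPM with IXA6, higher by 0.23 ± 0.06 log2 (SE, edgeR adjusted p = 0.024383). EEF1A2 measured 42.87 and 43.69 CPM against 34.3, 31.12 and 37.45 CPM, higher by 0.34 ± 0.10 log2 (SE, edgeR adjusted p = 0.035376). Neither gene's groups overlapped. EEF1E1 went the other way, with 89.84 and 87.91 CPM under IXA1 and 116.4, 102.3 and 109.9 CPM under IXA6, a difference of -0.30 ± 0.07 log2 (SE, edgeR adjusted p = 0.0089462).

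Among initiation factors, EIF1 measured 392.2 and 415 CPM with IXA1 and 330.6, 319.5 and 339.5 CPM with IXA6. The difference of 0.29 ± 0.05 log2 (SE, edgeR adjusted p = 0.0011983) had the DMSO libraries in between, at 354.1 to 363.2 CPM. EIF1B measured 91.98 and 91.16 CPM with IXA1 and 79.72, 78.53 and 82.66 CPM with IXA6, so both relatives were higher with IXA1 (EIF1B by 0.19 ± 0.06 log2, SE, edgeR adjusted p = 0.039933). EIF4B measured 407 and 413.2 CPM against 355.8, 330.9 and 346.3 CPM, higher by 0.25 ± 0.05 log2 (SE, edgeR adjusted p = 0.0081817). EIF5A measured 910.7 and 835.1 CPM against 676.8, 764.2 and 764.9 CPM, higher by 0.25 ± 0.07 log2 (SE, edgeR adjusted p = 0.036924). In each of these genes the IXA1 and IXA6 libraries did not overlap.

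Of the eIF3 subunits, EIF3L, EIF3F and EIF3I were higher with IXA1 than with IXA6. EIF3L measured 377.2 and 380.2 CPM with IXA1 and 313.1, 308.6 and 316.3 CPM with IXA6, a difference of 0.28 ± 0.05 log2 (SE, edgeR adjusted p = 0.0026601). EIF3F, one of the subunits with an MPN domain, measured 96 and 90.83 CPM against 75.68, 76.49 and 80.37 CPM, a difference of 0.27 ± 0.07 log2 (SE, edgeR adjusted p = 0.024688). EIF3I, a subunit of WD repeats, measured 331.3 and 348.2 CPM against 273.7, 282.7 and 295.9 CPM, a difference of 0.26 ± 0.06 log2 (SE, edgeR adjusted p = 0.011247). The libraries of the 2 compounds did not overlap in any of the 3 genes. EIF1, EIF3L and EEF1G were the calls between IXA1 and IXA6 that were kept under every alternative tried, with EIF3L between 0.25 and 0.29 log2 over them. Without either IXA1 library the calls of EIF1B, EIF3F, EIF3I, EIF4B, EIF5A, EEF1A2, EEF2 and EEF1E1 were lost.

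**Figure D3:**
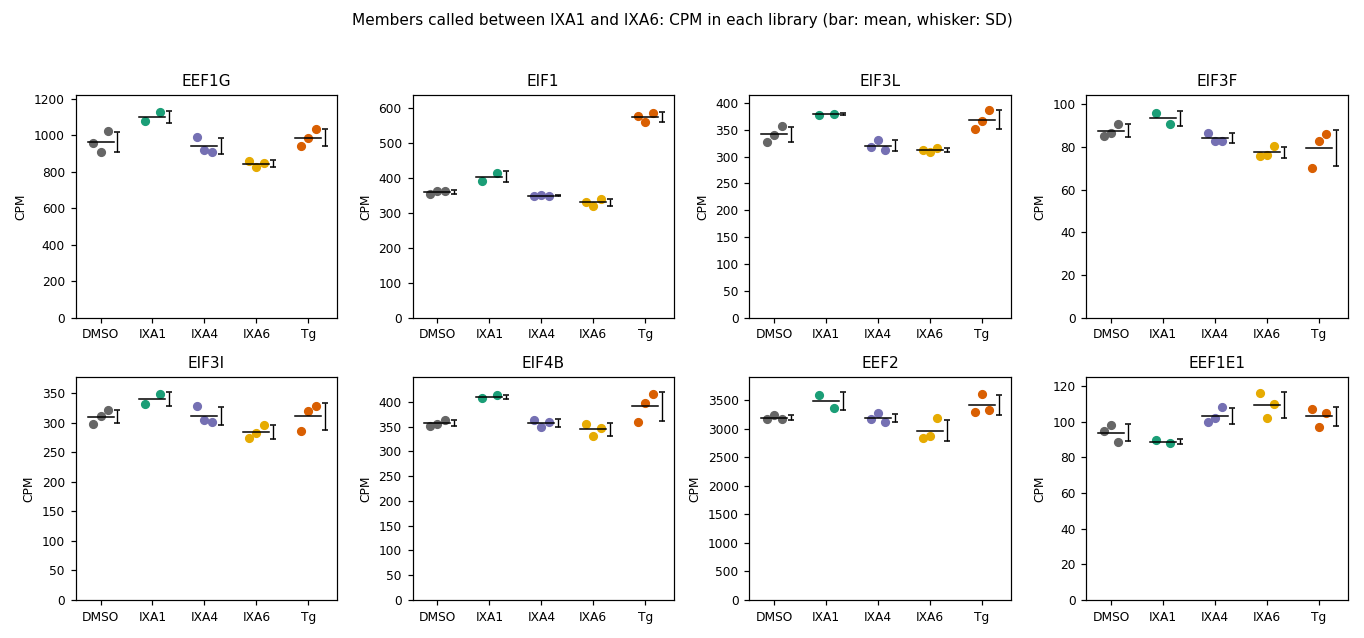
Level in CPM of 8 genes called between IXA1 and IXA6, 1 point per library, with the group mean as a bar and the SD as a whisker; axes start at 0. For 7 of the genes both IXA1 points lie above the IXA6 points, and for EEF1E1 below them, with IXA1 1076 and 1125 CPM against IXA6 825 to 859.5 CPM in EEF1G.

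Between IXA1 and IXA4, EIF1, EIF3L and EEF1G were called, all higher with IXA1 (6.52% of members, beside 2.58% of all genes either way and 1.9% higher). EIF1 measured 348.7, 351.4 and 348.1 CPM with IXA4 and differed by 0.21 ± 0.05 log2 (SE, edgeR adjusted p = 0.02078). EIF3L measured 317.3, 331.2 and 312 CPM with IXA4 and differed by 0.24 ± 0.05 log2 (SE, edgeR adjusted p = 0.012417). EEF1G measured 988.8, 921.4 and 910.8 CPM with IXA4 and differed by 0.23 ± 0.06 log2 (SE, edgeR adjusted p = 0.036688). All IXA4 libraries of these genes lay below both IXA1 libraries, and with libraries scaled by their totals 2 members were called higher and 1 lower. Leaving out either IXA1 library ended all 3 calls. Between IXA4 and IXA6 no member was called, and no gene of the whole table was (0%) in edgeR's test. Unadjusted p was below 0.05 for 4 members and for 1222 genes in all, and DESeq2's Wald test called no member and 21 genes. The members' differences ran from -0.24 to 0.21 log2, with 95% intervals of a median half-width of 0.12 that lay between -0.39 and 0.39. The test thus gave no call between these compounds, which does not show that they act alike.

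Tg was also set against each IXA compound. It differed from IXA1 in 18 members, 9 each way, beside 33.9% of all genes, 17.9% higher and 15.9% lower. It differed from IXA4 in 19 members, 17 higher and 2 lower, beside 34.4% of all genes, 18.4% higher and 16% lower. It differed from IXA6 in 19 members, 16 higher and 3 lower, beside 31% of all genes, 16.8% higher and 14.2% lower. With libraries scaled by their totals the splits were 6 higher and 13 lower, 8 and 10, and 8 and 4. EIF1, EIF5, EIF1AX and EIF3J were higher with Tg, and EIF4E2 and EIF4G1 lower, than with each of the IXA compounds. For EIF4G1 those differences were -0.33, -0.23 and -0.19 log2 against IXA1, IXA4 and IXA6, and for EIF1AX they were 0.29, 0.21 and 0.21.

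The first 20 bases of the annotated transcripts are shown because messages of this class are known for a start made of pyrimidines. A start was counted when it opened with C followed by at least 4 pyrimidines, a rule set after values of these data were known, and capitals mark that run. Of the 36 members with a RefSeq entry, 9 had such a start (25%), beside 5.14% of 27305 genes, measured here or not. A gene counted when any of its annotated starts did, and EEF1B2 also has an annotated start without the run. Sequences are from RefSeq, build GRCh38.p14, 5′ to 3′ along the message.
EEF1A1, chr6:73521013-73521032, minus strand: CTTTTTCgcaacgggtttgc
EEF1B2, chr2:206159895-206159914, plus strand: CCTTTTTCCTCTCTTCagcg
EEF2, chr19:3985444-3985463, minus strand: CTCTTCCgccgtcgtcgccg
EIF3D, chr22:36529147-36529166, minus strand: CTCTTTTCCTggtttctcaa
EIF3F, chr11:7987337-7987356, plus strand: CTTCTTTCTCgacaagatgg
EIF3K, chr19:38619188-38619207, plus strand: CTCTTCCTgttcccgtcctt
EIF3M, chr11:32583831-32583850, plus strand: CTTTTCCggtcggcgtggtc
EIF4A2, chr3:186783577-186783596, plus strand: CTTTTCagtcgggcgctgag
EIF4B, chr12:53006456-53006475, plus strand: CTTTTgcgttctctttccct
EIF1 and EEF1G were picked for their large changes in these data and not by a rule, and their annotated starts held no such run.
EIF1, chr17:41688885-41688904, plus strand: gccccagtcactgagccgcc
EEF1G, chr11:62573872-62573891, minus strand: actttgcggcagcgccgaga
The 9 genes and the other 27 had like median differences between IXA1 and IXA6, 0.10 log2 each. Called higher were 3 of 9 and 5 of 27, beside 4.53% of all genes. Of the 27, 1 was called lower, beside 2.82% of all genes. Of the 10 members without an entry, 2 were called higher. With Tg the medians of the 9 and the 27 were 0.09 and 0.02 log2. A positive difference was seen in 8 of 9 and 15 of 27, while scaling by library totals shifts the median of all genes by -0.07. These counts are a description, and the annotated start need not be the start used in these cells.

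Genes that act beside the factors gave the following counts. Of 7 genes of eIF2 and its partners, 3 rose with Tg, beside 18.8% of all genes called higher, and none was called with an IXA compound. EIF2S2, the beta subunit of eIF2, measured 156, 161.9 and 166.5 CPM with DMSO and 221.3, 219.4 and 250 CPM with Tg, a rise of 0.51 ± 0.06 log2 (SE, edgeR adjusted p = 1.5337e-07). EIF2A, a factor distinct from the eIF2 complex that can bring initiator tRNA to the ribosome, rose by 0.47 ± 0.06 (SE, edgeR adjusted p = 3.6594e-07), and EIF2S1, the alpha subunit that PERK phosphorylates, by 0.15 ± 0.05 (SE, edgeR adjusted p = 0.039584). Of 6 genes of release and recycling, 4 rose with Tg, beside the same 18.8%. These were ABCE1, which splits ribosomes after termination (0.36 log2), the rescue factors HBS1L (0.30) and PELO (0.21), and the release factor ETF1 (0.29).

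Of 15 regulators, 5 rose and 2 fell with Tg, beside 18.8% of all genes higher and 17% lower. EIF4EBP1, whose product binds eIF4E and blocks its union with eIF4G, measured 111.4, 111.1 and 110.8 CPM with DMSO and 197.9, 243.7 and 214.3 CPM with Tg. It rose by 0.98 ± 0.07 log2 (SE, edgeR adjusted p = 2.0587e-11), more than any of the 46 factors. Its relative EIF4EBP2 fell by 0.32 ± 0.05 (SE, edgeR adjusted p = 9.0298e-06), from 269.2 to 283.9 CPM down to 208.4 to 232.7 CPM. PABPC4, a poly(A)-binding protein, fell by 0.35 ± 0.04 (SE, edgeR adjusted p = 1.1791e-06). The main poly(A)-binding protein gene, PABPC1, was called with IXA1. It measured 785.5, 785.4 and 799 CPM with DMSO and 970.6 and 979.5 CPM with IXA1, a rise of 0.30 ± 0.05 log2 (SE, edgeR adjusted p = 0.0019258). Between IXA1 and IXA6, PABPC1, EIF4EBP1 and EIF4EBP2 were higher with IXA1 by 0.37, 0.38 and 0.22 log2. Of 13 genes that modify eIF5A or eEF2 or supply polyamines, 5 rose with Tg (DPH7, DNAJC24, DPH3, ODC1 and SRM) and 2 fell (DPH1 and AMD1), beside the same shares of all genes, and none was called with an IXA compound.

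Of the 85 ribosomal protein genes, RACK1 included, 4 rose and 3 fell with Tg, beside 35.8% of all genes called either way. With IXA6 4 fell, beside 2.29% of all genes called either way, among them RACK1 (-0.21 log2) and RPLP0 (-0.20). With IXA1 RPL38 rose by 0.37 and RPL37 by 0.20, and with IXA4 none was called. Between IXA1 and IXA6, 13 of the 85 were called, all higher with IXA1, beside the 7.35% of all genes given above. Among genes with a mean of at least 10 CPM the share called was 11.9%. The median difference of the 85 was 0.08 log2. RACK1, a scaffold protein of the small subunit, measured 1958 and 1996 CPM with IXA1 and 1531, 1468 and 1515 CPM with IXA6, a difference of 0.39 ± 0.06 (SE, edgeR adjusted p = 0.00078297). DMSO libraries of RACK1 lay between, at 1592 to 1820 CPM, as they did for EEF1G.

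**Figure D4:**
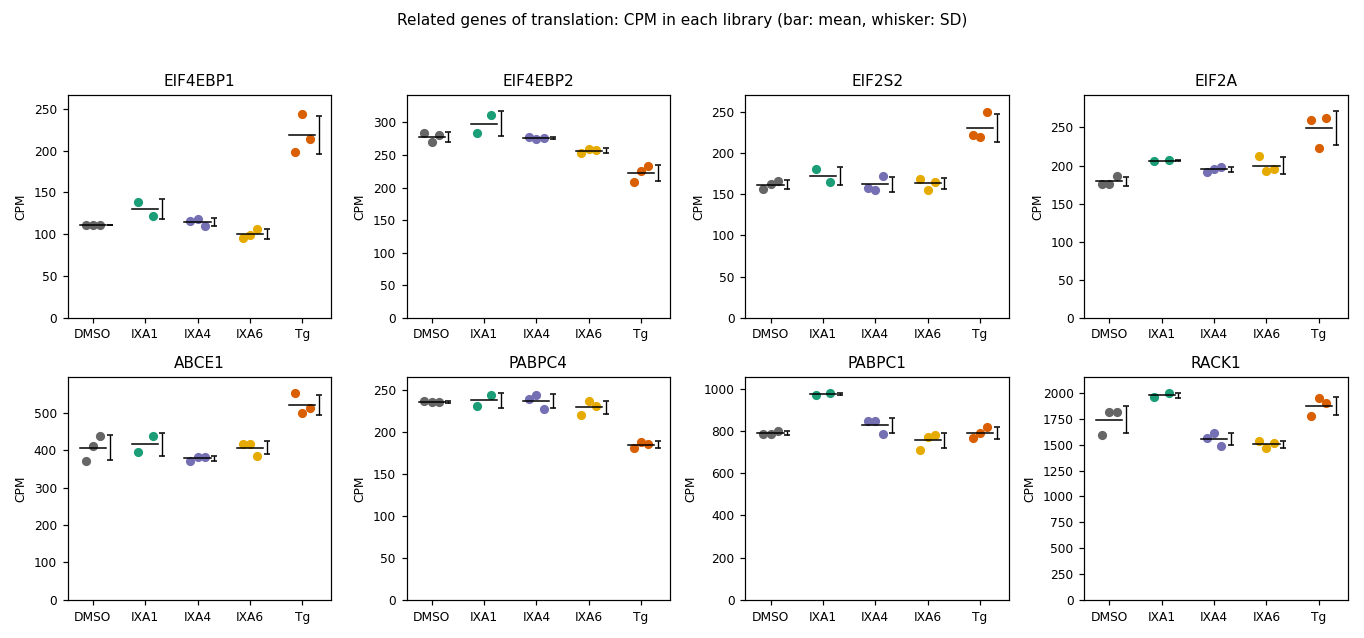
Level in CPM of 8 genes that act beside the factors, 1 point per library, with the group mean as a bar and the SD as a whisker; axes start at 0. EIF4EBP1, EIF2S2, EIF2A and ABCE1 are highest with Tg, EIF4EBP2 and PABPC4 lowest with Tg, and PABPC1 and RACK1 are higher with IXA1 than with IXA6.

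The authors' deposited table for Tg called 9 of the 46, 5 higher and 4 lower, beside 27.9% of all its genes, and all 9 were among the 14 called here. EIF1 stood at 0.68 log2, EIF5 at 0.38 and EIF4E2 at -0.55 in the authors' deposited table. For IXA6 the authors' deposited table called 6 members (3.59% of its genes), 2 higher and 4 lower. The higher ones were EIF4A2 and EEF1E1, and EEF1G and EIF3B were among the lower ones, each at -0.19 log2 in the authors' deposited table. For IXA4 it called 2 in the authors' deposited table (1.54%), EIF4A1 and EIF4G2, both lower. For IXA1 the authors' deposited table called 7 where the present fit called none (4.18% of its genes). It is not stated how many IXA1 libraries stand behind the authors' deposited table, and it may hold others than the 2 used here. These 7 were EEF1G, EEF2, EIF1, EIF3L, EIF4B and EIF5B, higher, and EIF3B, lower, with EIF4B at 0.19 log2 in the authors' deposited table.

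No call against DMSO was made for the rest of the members. EIF3A, EIF3D, EIF3E, EIF3G, EIF3H, EIF3K, EIF4A3, EIF4E, EIF4E3, EIF4ENIF1, EIF4G2, EIF4G3, EIF4H, EIF1AD, EIF5A2, EEF1B2, EEF1D, EEF2K, EEF1AKMT1 and EEF2KMT were called in none of the comparisons against DMSO. The least abundant in counts, EEF1AKMT1 and EEF2KMT, had mean levels of 8.34 and 12.8 CPM and the widest intervals. The annotated loci of EIF5B, EIF3A, EIF3B, EIF3G, EIF3J, EIF3M, EIF4E3 and EEF2KMT overlap those of other measured genes, SPG11 for EIF3J and SNX8 for EIF3B among them. Since it is not given whether counting used strand, the values of these members are uncertain to that extent.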

How the data were processed

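Total RNA of 15 samples was extracted by column, per the labels' protocols, from 3 independent experiments. The authors deposited raw counts per gene symbol; GRCh37.p13 and DESeq are named in the submitters' processing notes, and no source used here names the aligner, the counter or its use of strand. Of 15 count columns, 14 matched a sample and 1 matched none and was not used, which leaves IXA1 with 2 libraries. The authors' deposited tables of log2 fold changes and adjusted p-values were only set beside the values found here. Rows bearing a date for a name (22) stayed in the fit.

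Counts were fitted in R 4.3.3 with edgeR 4.0.16, with TMM scaling, the default filter (0 genes removed), a single quasi-likelihood fit of all 14 libraries and no covariates. P-values were adjusted by Benjamini-Hochberg over 13243 genes within each of 10 comparisons at 0.05. They set each difference against the spread between these samples, as estimated in that single fit. The SE is the size of the log2 fold change over the square root of F. DESeq2 1.42.0, other scalings and filters, the libraries of 2 groups alone, a replicate block and leaving out each library were the alternatives. Same-numbered libraries were checked for shared deviations from their group means. With so few libraries in a group these deviations are tied to each other. The check therefore cannot show or exclude that same-numbered libraries share an experiment. Members, gene lists and tests were chosen with earlier results of these data known. Every member could be named; full values went to members called with or between IXA compounds and to the largest called changes with Tg. A RefSeq table of GRCh38.p14, another build than that of the counts, served for sequences (36 of 46 members matched) and overlaps of loci. Levels were not divided by gene length, so the shares given within pairs of genes are not shares of messages. Levels are not otherwise compared between genes.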

Additional observations from a re-analysis of the deposited data

How the results depend on the processing

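Of 30 single calls against DMSO or between IXA compounds, 9 were kept under every alternative and 0 of 379 values reversed. With IXA1 against DMSO, 0 members became 1 with DESeq2's size factors, 4 with DESeq2's Wald test, 2 with genes of at least 10 CPM, 7 with the libraries of both groups alone and 1 with the replicate block. All genes called went from 306 to 310, 454, 363, 648 and 247 in that order. With IXA4, 0 became 1 in DESeq2's Wald test. With IXA6, 2 became 4 in DESeq2's Wald test, 4 at 10 CPM, 5 with both groups alone and 1 with the block, which ended the call of EEF1E1. Between IXA1 and IXA4, 3 became 11, 5, 11 and 6 in the same order as with IXA6, while all genes called went from 342 to 594, 436, 1156 and 339. Between Tg and IXA6, 19 became 12 with both groups alone and 12 with library totals. The block had like counts elsewhere; 26 same-numbered pairs of libraries correlated at -0.148 to 0.112.

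Leaving out a library gave 0 to 1 with IXA6 and 9 (without DMSO 2) to 18 (without Tg 2) with Tg. It gave 0 to 2 between IXA1 and IXA4, 3 (without either IXA1 library) to 13 (without IXA6 3) between IXA1 and IXA6, 6 (without IXA1 1) to 19 between Tg and IXA1, and 14 to 22 between Tg and IXA4 or IXA6. It stayed at 0 with IXA1, with IXA4 and between IXA4 and IXA6. A lone IXA1 library was assumed to vary like the others. The cause of these shifts was not tested. Depth limits EEF1AKMT1, EEF2KMT and EIF5A2 most.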
